A study of Mus musculus with 2 samples.

Results

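The genes described here are 8 transcription factor genes of limb position: *Hoxa11* and *Hoxa13* of the HoxA cluster, *Hoxd10*, *Hoxd11*, *Hoxd12* and *Hoxd13* of the HoxD cluster, and the hindlimb identity genes *Tbx4* and *Pitx1*. They were chosen by symbol, each symbol matched 1 row of the 33696 genes counted, and all 8 had at least 1 transcript counted in both datasets. Hox genes sit in clusters and are expressed along body axes in the order of their place in the cluster, and the genes at the posterior end of HoxA and HoxD pattern the limb from shoulder or hip to digit. *Hoxa11* and *Hoxd11* are required for the forearm, and *Hoxa13* and *Hoxd13* for the hand and foot. *Pitx1* acts upstream of the T-box gene *Tbx4* in the hindlimb bud, whereas *Tbx5* is the T-box gene of the forelimb bud.

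The data are single-cell RNA sequencing (scRNA-seq) datasets from amputated hindlimb digits 2 and 4 of ICR mice, an outbred strain, with males and females pooled. Digits were amputated through the middle phalanx (P2), an injury that does not regenerate, at postnatal day 3, and an agarose bead was implanted at postnatal day 7, carrying FGF8, a fibroblast growth factor (500 ng/µl), in 1 group and 0.1% bovine serum albumin (BSA) in the control group. Tissue distal to the stump, with the epithelium taken off, was dissociated with Liberase 24 h later, at postnatal day 8, and cells of 20 digits from 5 mice were pooled into 1 library per group. Both groups therefore carry an amputation and a bead, no uninjured digit and no forelimb digit was analysed here, and an effect of the bead cannot be told apart from differences between the pools of mice, the dissections or the libraries.

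Transcripts were counted by unique molecular identifiers (UMIs), which keep PCR copies of 1 molecule from being counted again, and assigned to cells by barcode. The BSA library held 67739460 UMIs in 3703 barcodes and the FGF8 library 124889213 UMIs in 7249 barcodes, of which 3252 and 6715 passed the filters on cells, and 4 of the passing barcodes occurred in both libraries. Levels below are UMIs summed over the cells of 1 type and library and scaled to a total of 1000000 UMIs of those cells (CPM), with exact Poisson 95% intervals that cover counting error only. With 1 library per group no test was made and no p-value was computed. Cells were clustered without these 8 genes, and a cluster is called "X-like" where marker lists named it. Fibroblast-like cells (1664 BSA and 3281 FGF8 cells, led by *Mfap5*, *Mfap4* and *Crabp1*) were the largest class. A second fibroblast-like group of 138 BSA and 245 FGF8 cells, with few UMIs per cell, is left out of this class and of the cell types compared below. Among cells whose sex could be called from sex-linked genes, 79.3% were female in the BSA library and 24.6% in the FGF8 library.

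The HoxD members lie side by side on chromosome 2 of the mouse genome (GRCm39, GENCODE vM39, plus strand), with *Hoxd13* at chr2:74498654-74501943, *Hoxd12* at chr2:74505357-74508049, *Hoxd11* at chr2:74509901-74517360 and *Hoxd10* at chr2:74522230-74525449. *Hoxa11* (chr6:52219074-52222806) and *Hoxa13* (chr6:52234602-52237822) lie on the minus strand of chromosome 6, *Tbx4* on chromosome 11 (chr11:85776887-85806923, plus strand) and *Pitx1* on chromosome 13 (chr13:55972864-55984005, minus strand). The 250 bases before the start of the canonical transcript are printed for *Hoxd10* (chr2:74521980-74522229) and *Hoxd11* (chr2:74510725-74510974), neighbours whose levels differed in opposite directions between endothelial-like and fibroblast-like cells, and for *Hoxd13* (chr2:74498404-74498653) and *Pitx1* (chr13:55979239-55979488, minus strand), the members in which a searched motif was found. The *Hoxd11* and *Pitx1* windows lie inside the annotated gene spans, which begin at other transcripts. Capitals mark motif matches.
Hoxd10: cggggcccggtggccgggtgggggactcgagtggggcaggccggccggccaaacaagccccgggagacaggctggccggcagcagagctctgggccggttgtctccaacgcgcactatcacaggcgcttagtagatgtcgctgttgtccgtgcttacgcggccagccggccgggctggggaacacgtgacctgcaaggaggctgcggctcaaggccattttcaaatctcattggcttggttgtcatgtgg
Hoxd11: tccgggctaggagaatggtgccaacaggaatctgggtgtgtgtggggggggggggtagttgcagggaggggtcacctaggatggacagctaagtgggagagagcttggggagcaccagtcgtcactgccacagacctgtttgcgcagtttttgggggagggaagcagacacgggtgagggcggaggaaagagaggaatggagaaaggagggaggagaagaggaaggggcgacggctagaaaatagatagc
Hoxd13: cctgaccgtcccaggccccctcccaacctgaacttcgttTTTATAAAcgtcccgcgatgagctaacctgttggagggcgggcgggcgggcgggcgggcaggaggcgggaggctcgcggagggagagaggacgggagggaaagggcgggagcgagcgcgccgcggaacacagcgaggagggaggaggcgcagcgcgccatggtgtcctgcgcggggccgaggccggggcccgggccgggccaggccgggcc
Pitx1: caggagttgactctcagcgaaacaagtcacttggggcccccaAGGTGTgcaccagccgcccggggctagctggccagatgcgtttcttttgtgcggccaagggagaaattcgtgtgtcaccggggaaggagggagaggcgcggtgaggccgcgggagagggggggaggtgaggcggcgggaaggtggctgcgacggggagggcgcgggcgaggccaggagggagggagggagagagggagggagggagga
Motifs of 5 kinds were searched on both strands. They were the core promoter motif TATAAA, the core of ETS factors, written CCGGAAG, and TAATCC, which is bound by bicoid-type homeodomains, the class of *Pitx1*. The remaining motifs were CAATAAA, which is bound by paralogue 13 Hox proteins, and the T-box core, written AGGTGT. Of these, TATAAA was present in the *Hoxd13* window, where matches on both strands overlap, and in 11.92% of 21770 promoter windows of the same length. The *Hoxd13* match lies toward the end of the window that is farthest from the transcript start, so it does not mark a TATA box at that start. AGGTGT was present in the *Pitx1* window and in 12.35% of all windows. The other 3 motifs, present in 6.89% (CCGGAAG), 7.0% (TAATCC) and 3.987% (CAATAAA) of all windows, were in none of the 8 members' windows. The *Hoxd10* window held 20 CG dinucleotides and the *Hoxd11* window 7, against a median of 8 over all windows, while *Hoxa13* held 43 and *Hoxd13* 31. For counting, 237 of 470 31-base words at the end of the *Hoxd11* transcript are shared with Gm28309, an annotated gene that spans *Hoxd11* and *Hoxd10* and is not among the genes counted, and Gm28760, which is counted, overlaps *Pitx1* on the same strand.

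Fibroblast-like cells held 92.2% of the members' UMIs in the BSA library (8968 of 9727, exact binomial 95% interval 91.6 to 92.7) and 92.6% in the FGF8 library (15955 of 17233, 92.2 to 93.0), whereas they held 65.1% and 67.6% of all UMIs. The share was lowest for *Hoxd10*, at 75.5% in BSA and 80.3% in FGF8, and highest in FGF8 for *Tbx4*, at 96.6%. In BSA, *Tbx4* (96.7%) and *Hoxd12* (96.1%) were the highest and their intervals overlap.

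Among the HoxA genes, *Hoxa11* stood at 32.6 CPM in fibroblast-like cells of the BSA library (1155 UMIs) and 33.9 CPM in FGF8 (2364 UMIs). *Hoxa13*, the autopod gene of the cluster, stood at 36.5 CPM in BSA (1293 UMIs) and 28.1 CPM in FGF8 (1962 UMIs). Both genes were next highest in smooth muscle or pericyte-like cells and in chondrocyte-like cells. *Hoxa13* reached 33.1 CPM in smooth muscle or pericyte-like cells of BSA (96 UMIs, interval 26.8 to 40.5) and 25.1 CPM in FGF8 (92 UMIs, 20.3 to 30.8), and the interval of its ratio to the fibroblast-like level included 0 in both libraries. *Hoxa11* was below its fibroblast-like level there, at 9.66 CPM in BSA and 19.7 CPM in FGF8. In chondrocyte-like cells *Hoxa11* stood at 11.6 and 11.5 CPM and *Hoxa13* at 14.7 and 15.6 CPM in BSA and FGF8.

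Among the HoxD genes, *Hoxd11* stood at 59.4 CPM in fibroblast-like cells of BSA (2105 UMIs) and 52.0 CPM in FGF8 (3631 UMIs). *Hoxd13*, the gene whose loss or repeat expansion alters digit number and form, stood at 43.9 CPM (1554 UMIs) and 41.7 CPM (2911 UMIs). *Hoxd12*, between them on the chromosome, had 123 UMIs in BSA (3.47 CPM) and 178 in FGF8 (2.55 CPM). In chondrocyte-like cells *Hoxd13* was as high as in fibroblast-like cells in BSA (45.9 CPM, 75 UMIs, log2 ratio of chondrocyte-like over fibroblast-like 0.06, exact conditional 95% interval -0.29 to 0.40) and slightly below it in FGF8 (33.7 CPM, 108 UMIs, -0.31, -0.60 to -0.03). *Hoxd11* was lower than its fibroblast-like level in the same cells, at 23.9 CPM in BSA and 19.9 CPM in FGF8. In smooth muscle or pericyte-like cells *Hoxd11* stood at 16.2 and 16.9 CPM, *Hoxd13* at 3.45 and 8.47 CPM, and *Hoxd12* had 0 UMIs in either library, which allows up to 1.04 CPM in BSA and 0.820 CPM in FGF8 (3 UMIs).

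The hindlimb genes had different ranges. *Tbx4* stood at 57.6 CPM in fibroblast-like cells of BSA (2041 UMIs) and 49.8 CPM in FGF8 (3476 UMIs), against 2.42 and 3.28 CPM in smooth muscle or pericyte-like cells and 10.4 and 5.92 CPM in chondrocyte-like cells. *Pitx1*, the homeodomain gene upstream of *Tbx4*, was instead highest in chondrocyte-like cells of the BSA library, at 19.0 CPM (31 UMIs), against 8.05 CPM in fibroblast-like cells (285 UMIs), a log2 ratio of 1.24 (0.65 to 1.77). In FGF8 the *Pitx1* levels were 13.4 CPM (43 UMIs) and 10.97 CPM (766 UMIs), and the interval of their ratio included 0 (0.29, -0.19 to 0.73). *Tbx5*, the forelimb gene, had 137 UMIs in BSA and 155 in FGF8 in fibroblast-like cells (3.87 and 2.22 CPM) and at most 4 UMIs in any other named cell type.

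**Figure D1:**
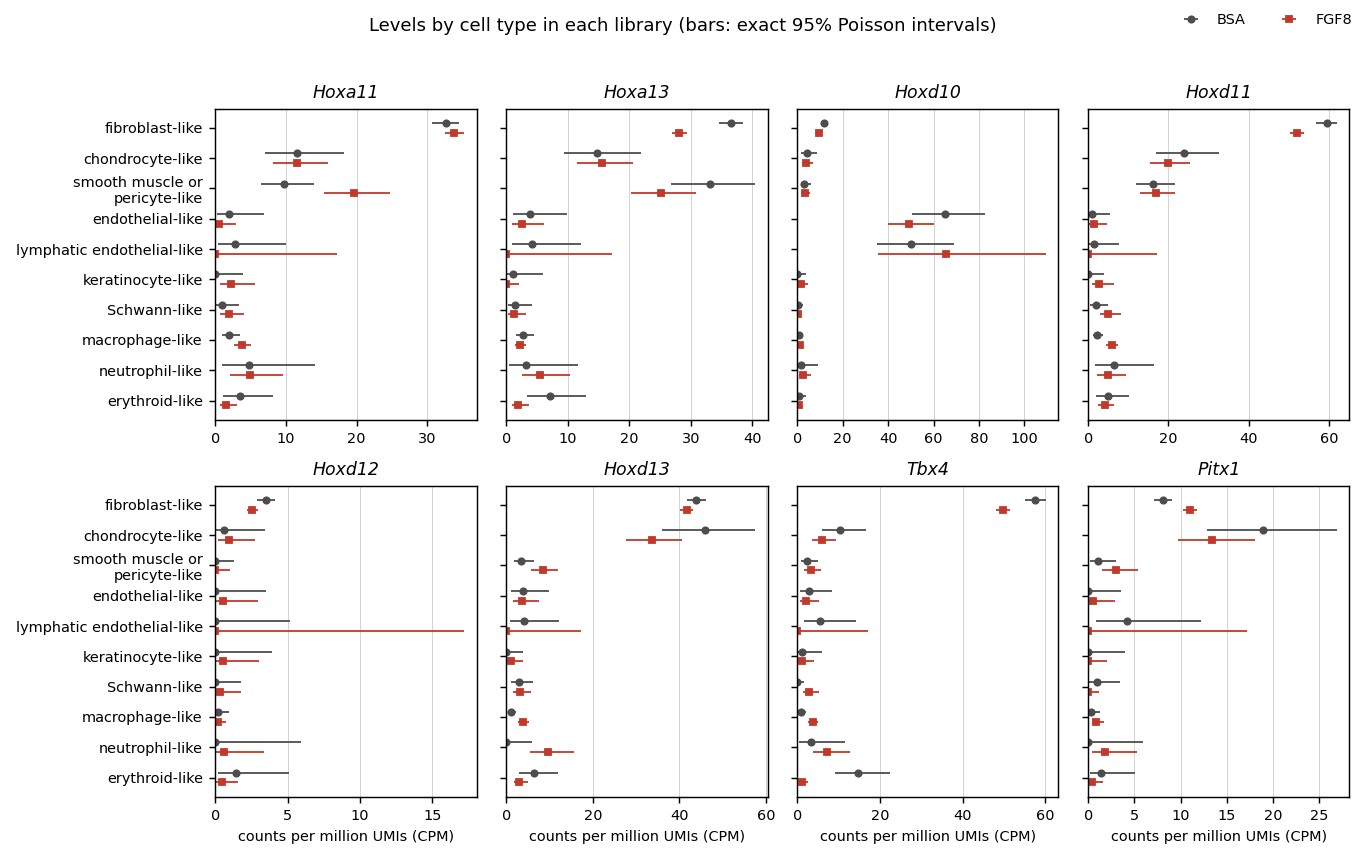
Level of each of the 8 genes (CPM, linear x axis, a separate scale per gene) in 10 cell types of the BSA library (grey circles) and the FGF8 library (red squares), with exact Poisson 95% intervals as bars. *Hoxd10* is highest in endothelial-like cells (65.0 CPM in BSA and 49.2 CPM in FGF8) and lymphatic endothelial-like cells, and *Pitx1* in chondrocyte-like cells (19.0 and 13.4 CPM), whereas the other 6 genes have their highest level in fibroblast-like cells, or, for *Hoxd13* in BSA, at nearly the same level in chondrocyte-like cells (45.9 CPM). For *Pitx1* in FGF8 the difference between chondrocyte-like and fibroblast-like cells was not resolved.

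*Hoxd10* was the member with its highest levels in endothelial-like and lymphatic endothelial-like cells. In endothelial-like cells, which are led by *Flt1*, *Gpihbp1* and *Cd93*, *Hoxd10* reached 65.0 CPM in BSA (68 UMIs in 82 cells, interval 50.5 to 82.5) and 49.2 CPM in FGF8 (94 UMIs in 132 cells, 39.8 to 60.3). Lymphatic endothelial-like cells, led by *Lyve1*, *Mmrn1* and *Prox1*, gave 49.99 CPM in BSA (36 UMIs in 47 cells) and 65.3 CPM in FGF8 (14 UMIs in 11 cells). Fibroblast-like cells stood at 11.6 CPM in BSA (412 UMIs) and 9.55 CPM in FGF8 (667 UMIs). The endothelial-like level of *Hoxd10* was thus 5.59-fold the fibroblast-like level in BSA (log2 2.48, 2.09 to 2.86) and 5.15-fold in FGF8 (2.37, 2.04 to 2.68). Its neighbour *Hoxd11* had 1 UMI in endothelial-like cells of BSA (0.957 CPM) and 3 UMIs in FGF8 (1.57 CPM). *Hoxa11* had 2 UMIs in BSA and 1 in FGF8 there, *Pitx1* 0 and 1, and *Hoxd13* 4 and 7. The order of *Hoxd10* and *Hoxd11* between the cell types was therefore opposite in both libraries, although the genes are adjacent on the chromosome.

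The share of endothelial-like cells with a *Hoxd10* UMI was 36.6% in BSA (interval 26.2 to 48.0, median 6627 UMIs per cell) and 31.8% in FGF8 (23.99 to 40.5, median 10191.5), although these cells were less deeply sampled than fibroblast-like cells (medians 20490 and 18718), of which 19.7% and 16.5% had one. In macrophage-like cells, 0.851% of BSA cells (median 10252 UMIs) and 1.45% of FGF8 cells (median 9594.5) had a *Hoxd10* UMI. After each cell was thinned to 5000 UMIs, 21.3% of 47 endothelial-like cells in BSA and 23.5% of 98 in FGF8 had a *Hoxd10* UMI, against 4.48% of 1494 and 5.11% of 2934 fibroblast-like cells.

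The other Hox genes set *Hoxd10* among its neighbours. In endothelial-like cells *Hoxd8* stood at 136 CPM in BSA and 134 CPM in FGF8, against 4.29 and 3.72 CPM in fibroblast-like cells, and *Hoxd9* at 109 and 107 CPM, against 2.51 and 2.28 CPM. *Hoxb7* of the HoxB cluster had 40 and 119 UMIs in endothelial-like cells and 3 and 7 in fibroblast-like cells. On the other side, *Hoxa9* stood at 53.4 and 56.5 CPM in fibroblast-like cells and at 17.2 and 28.8 CPM in endothelial-like cells, and *Hoxa10* at 51.8 and 44.0 CPM against 3.83 and 4.71 CPM. Schwann-like cells, the glia of peripheral nerve, had *Hoxb7* (30.1 and 26.3 CPM) and *Hoxd8* (32.5 and 30.99 CPM) with 1 *Hoxd10* UMI in each library. Keratinocyte-like cells had *Hoxc13*, a gene of hair and nail, at 58.7 and 90.1 CPM, and of the 8 members at most 5 UMIs of any in either library. These genes were chosen for display after their values were seen.

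**Figure D2:**
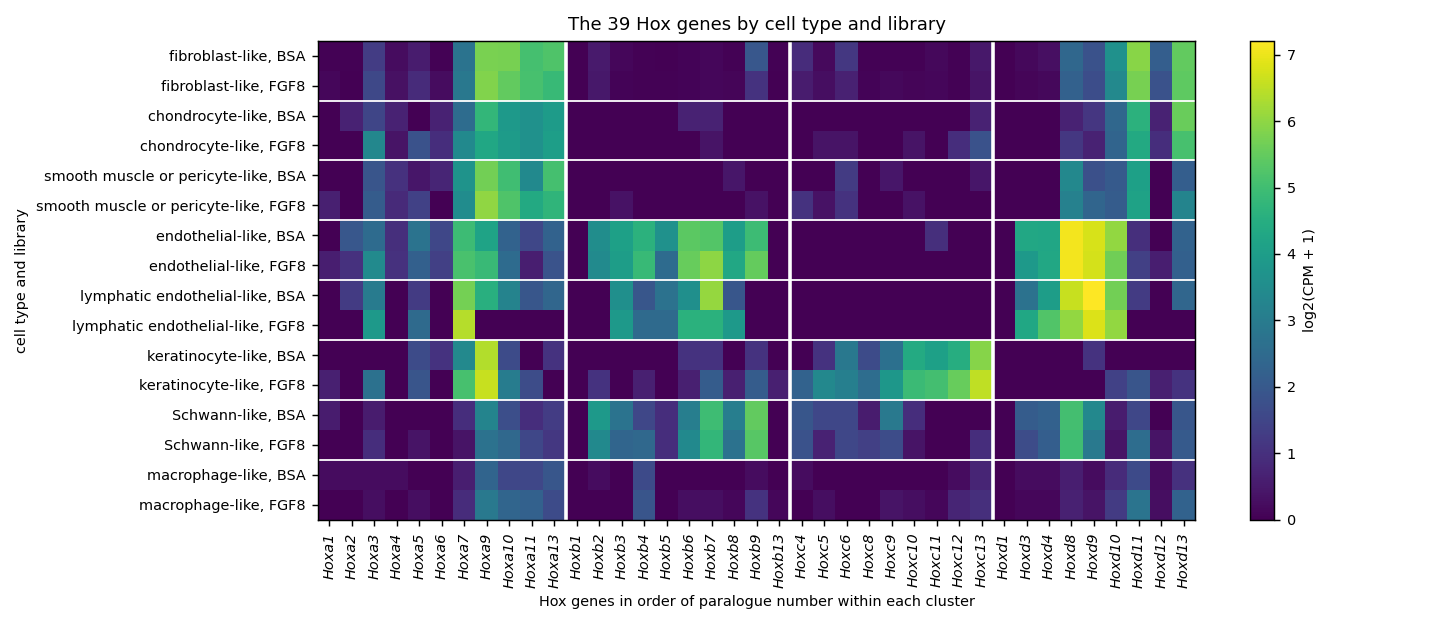
Level of the 39 Hox genes as log2(CPM + 1) (color scale) in 8 cell types (rows, 1 row per library), with genes in order of paralogue number (columns) and white lines between the 4 clusters. Fibroblast-like, chondrocyte-like and smooth muscle or pericyte-like rows are bright at *Hoxa9* to *Hoxa13* and at *Hoxd11*, whereas endothelial-like rows are bright at *Hoxd8*, *Hoxd9* and *Hoxd10* (65.0 CPM in BSA) and dark at *Hoxd11* (0.957 CPM in BSA).

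In cell types of blood, nerve and epidermis the members had few UMIs, at most 60 for any gene in a type and library. In macrophage-like cells the 8 genes ranged from 0.174 CPM (*Hoxd12*, 1 UMI) to 2.78 CPM (*Hoxa13*, 16 UMIs) in BSA and from 0.195 CPM (*Hoxd12*, 2 UMIs) to 5.84 CPM (*Hoxd11*, 60 UMIs) in FGF8. The share of macrophage-like cells with a *Hoxd13* UMI was 1.28% in BSA and 2.90% in FGF8, against 48.4% and 47.7% of fibroblast-like cells, and after thinning to 5000 UMIs 0.0% and 1.25% against 18.5% and 18.6%. The 7 fibroblast markers summed to 1717 CPM in macrophage-like cells of BSA and 2291 CPM in FGF8, and none was at 0, so fibroblast transcripts were counted with these cells and their part in the members' low levels was not tested. *Tbx4* had 21 UMIs in erythroid-like cells of BSA (14.7 CPM, 82 cells) and 5 in FGF8 (1.08 CPM, 613 cells). The BSA value is above the 10.4 CPM of *Tbx4* in chondrocyte-like cells. The fibroblast markers in the same erythroid-like cells summed to 4338 and 1992 CPM. In neutrophil-like cells of FGF8 *Hoxd13* had 16 UMIs (9.67 CPM) and *Tbx4* 12 UMIs (7.25 CPM), against 0 and 2 UMIs in BSA, and the fibroblast markers summed to 5687 CPM in FGF8 and 4200 CPM in BSA there. What fibroblast transcripts add to these levels was not tested.

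Within the fibroblast-like class, cells were clustered again into 6 subclusters, which are described by number and leading genes. Subcluster 3, led by *Lpl*, *Dlk1* and *Pi16*, had the lowest level of *Hoxa11*, *Hoxd10*, *Hoxd11*, *Hoxd13* and *Tbx4* in both libraries. *Hoxd11* stood at 30.8 CPM there in BSA (188 UMIs) and 28.8 CPM in FGF8 (273 UMIs), and at 81.3 CPM (264 UMIs) and 79.4 CPM (288 UMIs) in subcluster 5, led by *Coch* and *Nrg1*. *Tbx4* had the same lowest and highest subcluster, from 34.9 and 34.8 CPM in subcluster 3 to 75.8 and 88.3 CPM in subcluster 5. *Hoxd12* was also highest in subcluster 5, at 5.24 CPM in BSA (17 UMIs) and 7.72 CPM in FGF8 (28 UMIs). The median depth of subcluster 3 (23168 and 19770 UMIs per cell) was above that of subcluster 5 (14634.5 and 11337).

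*Hoxd13* and *Pitx1* had a different order. *Hoxd13* was highest in subcluster 2, led by *Fmod*, *Kcnma1* and *Comp*, at 60.9 CPM in BSA (498 UMIs, 55.7 to 66.5) and 64.0 CPM in FGF8 (683 UMIs, 59.3 to 69.0), and lowest in subcluster 3 (27.5 and 30.3 CPM). *Pitx1* stood at 14.7 CPM in BSA and 14.2 CPM in FGF8 in subcluster 2 and at 13.3 and 14.7 CPM in subcluster 1, led by *Prg4*, the gene of the joint lubricant lubricin, and *Mmp3*. The intervals of *Pitx1* in subclusters 1 and 2 overlap in each library, so their order was not resolved. In subclusters 0, 3 and 5 *Pitx1* was lower, between 1.23 CPM (subcluster 5, 4 UMIs) and 3.76 CPM in BSA and between 4.14 and 4.74 CPM in FGF8. *Hoxa13* was lowest in subcluster 1, at 29.4 CPM in BSA (230 UMIs) and 21.8 CPM in FGF8 (725 UMIs), and highest in subcluster 0, led by *Chodl* and *Sema3a*, at 41.99 and 39.98 CPM. *Hoxa11* and *Hoxa13* varied least, with a highest level 1.54-fold and 1.43-fold the lowest in BSA and 1.39-fold and 1.84-fold in FGF8. The other 6 genes spanned at least 2-fold between subclusters in both libraries, a count that was 2 at a coarser resolution of 0.1 and 5 at 0.3. The share of all genes with such a span was not computed, so the count does not set these genes apart. The lowest levels of *Hoxd12* in FGF8 (subcluster 4) and of *Pitx1* in BSA (subcluster 5) rest on 2 and 4 UMIs. Subcluster 4 (*Lars2*, *Camk1d*) had few UMIs per cell (medians 3133 and 2608), and its levels rest on 2 to 143 UMIs.

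**Figure D3:**
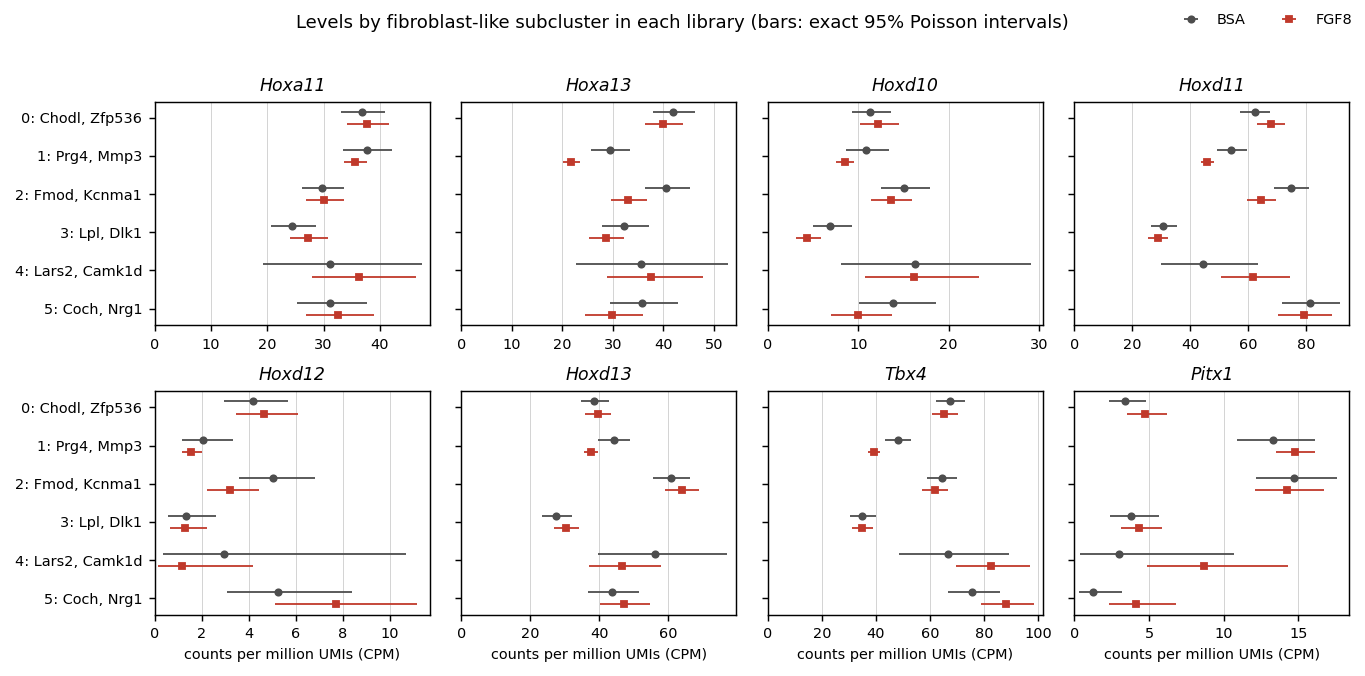
Level of each of the 8 genes (CPM, linear x axis, a separate scale per gene) in the 6 fibroblast-like subclusters, labelled by number and leading genes, in the BSA library (grey circles) and the FGF8 library (red squares), with exact Poisson 95% intervals as bars. Subcluster 3 sits lowest for *Hoxd11* (30.8 and 28.8 CPM) and *Tbx4* (34.9 and 34.8 CPM), and *Pitx1* is high in subclusters 1 and 2 (13.3 to 14.7 CPM).

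The FGF8 library was compared with the BSA library in cells of the same type, 24 h after the bead. In fibroblast-like cells 2 of the 8 genes, *Hoxa11* and *Pitx1*, had a higher CPM in FGF8, and 6 had a lower one, against 44.1% and 55.9% of the 20050 genes with at least 10 UMIs there. None of the 8 passed a log2 ratio of 1 or -1, against 11.7% of all genes. The median log2 ratio of the 8 was -0.20 and that of all genes -0.07.

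*Pitx1* had the highest ratio of the 8, from 8.05 to 10.97 CPM (log2 0.45, exact conditional 95% interval 0.25 to 0.65). It was also above 0 within female-called cells (0.37, 0.07 to 0.67) and within male-called cells (0.91, 0.45 to 1.40). Subclusters 1 and 2, where *Pitx1* was high, held 14.8% and 19.5% of fibroblast-like cells in BSA and 29.1% and 15.1% in FGF8. Of the UMIs of fibroblast-like cells they held 22.1% and 23.1% in BSA and 47.7% and 15.3% in FGF8. Within subcluster 1 the *Pitx1* ratio was 0.15 (-0.16 to 0.47) and within subcluster 2 it was -0.04 (-0.40 to 0.31). It was 0.47 (-0.19 to 1.16) in subcluster 0, 0.20 (-0.57 to 1.00) in subcluster 3 and 1.55 (-0.56 to 4.72) in subcluster 4. In subcluster 5, with 4 and 15 UMIs, it was 1.75 (0.10 to 3.80). Each subcluster was then given the same weight in both libraries, namely its share of the fibroblast-like cells of both libraries together. With these weights the *Pitx1* ratio was 0.28. The weights are shares of cells, whereas the ratio of summed UMIs weights each subcluster by its UMIs, so the 2 values differ in that respect too. With each cell weighted equally and no subcluster weights the *Pitx1* ratio was 0.46.

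*Hoxa13* was lower in FGF8, from 36.5 to 28.1 CPM (log2 -0.38, -0.48 to -0.28), and below 0 in female-called (-0.42) and male-called cells (-0.25). Its ratio was -0.43 (-0.65 to -0.21) in subcluster 1, -0.30 (-0.52 to -0.08) in subcluster 2 and -0.07 (-0.27 to 0.13) in subcluster 0. Within subcluster 2 it was -0.87 (-1.30 to -0.45) in female-called and 0.28 (-0.30 to 0.92) in male-called cells. Within subcluster 0 these ratios were -0.44 (-0.85 to -0.05) and 0.19 (-0.17 to 0.56). Within subcluster 1 they were -0.11 (-0.44 to 0.21) and -0.61 (-1.02 to -0.18). For the whole class the *Hoxa13* ratio was -0.19 with the same subcluster weights in both libraries. *Hoxd12* had the lowest ratio of the 8 (-0.45, -0.79 to -0.10), on the fewest UMIs. With the same subcluster weights it stood at -0.12 and was no longer the lowest, and with each cell weighted equally it stood at -0.17. *Hoxd10* (-0.28), *Hoxd11* (-0.19) and *Tbx4* (-0.21) were lower with intervals that exclude 0. With the same subcluster weights in both libraries they stood at -0.17, -0.03 and -0.01. The *Tbx4* ratio was 0.039 when each cell counted equally and 0.055 when cells were thinned to 2000 UMIs, and -0.28 when thinned to 5000 UMIs. The *Hoxd10* ratio turned to 0.18 when cells were thinned to 5000 UMIs and was -0.08 (-0.36 to 0.20) in female-called cells. *Hoxa11* (0.05, -0.05 to 0.16) and *Hoxd13* (-0.07, -0.16 to 0.02) had intervals that include 0. The median of the 8 was -0.03 with the same subcluster weights in both libraries. Within subcluster 0 the CPM was higher in FGF8 for 6 of the 8, against 50.9% of the 15536 genes tested there, and within subcluster 1 for 1 of the 8, *Pitx1*, against 44.8% of 16896.

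**Figure D4:**
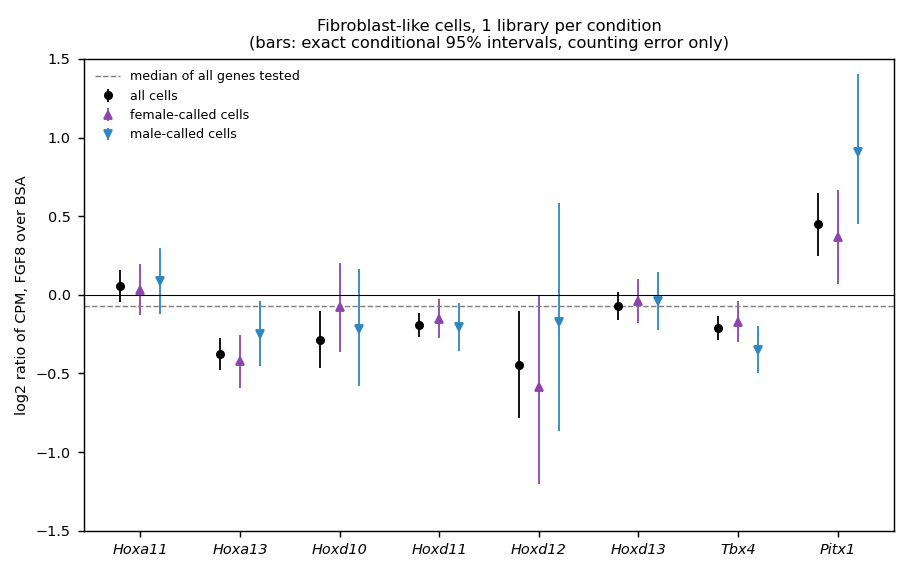
Log2 ratio of CPM, FGF8 over BSA, of each of the 8 genes in fibroblast-like cells (black circles), in female-called cells (purple triangles) and in male-called cells (blue triangles), with exact conditional 95% intervals as bars and the median of all genes tested (-0.07) as a dashed line. *Pitx1* lies above 0 (0.45 in all cells) and *Hoxa13* below 0 (-0.38) in all 3 sets of cells.

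In smooth muscle or pericyte-like cells (186 BSA and 285 FGF8 cells) 7 members reached 10 UMIs. The CPM was higher in FGF8 for 6 of these 7, against 52.3% of 13270 genes. 3 of the 7 passed a log2 ratio of 1, against 5.34% of all genes there. *Hoxa11* had 28 UMIs in BSA and 72 in FGF8 (log2 1.03, 0.38 to 1.71). *Hoxd13* had 10 and 31 UMIs (1.30, 0.23 to 2.49), and *Pitx1* had 3 and 11 UMIs with an interval that includes 0 (1.54, -0.38 to 4.02). *Hoxa13* was the exception, at 96 and 92 UMIs (-0.40, -0.83 to 0.03). The 7 fibroblast markers summed to 6585 CPM in these cells in BSA and 6844 CPM in FGF8, none at 0, against 43395 and 23362 CPM in fibroblast-like cells. In macrophage-like cells, which are not of the limb mesenchyme, the CPM was also higher in FGF8 for 6 of 7 members, against 56.1% of 15326 genes. The ratio was 1.49 for *Hoxd11* (0.58 to 2.52), 1.87 for *Hoxd13* (0.62 to 3.40) and 2.09 for *Tbx4* (0.74 to 3.79), and -0.38 for *Hoxa13* (-1.37 to 0.65). What fibroblast transcripts add to either cell type was not tested.

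In chondrocyte-like cells (66 BSA and 143 FGF8 cells) 1 of 7 members, *Hoxa13*, had a higher CPM in FGF8 (0.09, -0.64 to 0.85), against 47.1% of 12141 genes, and none passed a log2 ratio of 1 or -1, against 16.6% of all genes there. The ratio was -0.45 for *Hoxd13* (lower bound -0.89, upper bound just below 0), -0.50 for *Pitx1* (-1.20 to 0.21) and -0.81 for *Tbx4* (-1.84 to 0.22). In endothelial-like cells *Hoxd10* stood at 65.0 CPM in BSA and 49.2 CPM in FGF8 with overlapping intervals.

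Detection of the genes together in single fibroblast-like cells was compared after thinning each cell to 5000 UMIs, which left 1494 BSA and 2934 FGF8 cells. Of 28 pairs, 24 in BSA and 20 in FGF8 were found together in more cells than the product of the single shares gives, with a median ratio of 1.13 and 1.14. The interval of the ratio lay above 1 for 1 pair in BSA and 10 pairs in FGF8, and below 1 for none. The share of all gene pairs with such ratios was not computed, so these counts do not set the pairs apart. The intervals treat each cell as a replicate and the product as fixed, and the FGF8 library had more cells. With median ratios this close, the counts of 1 and 10 pairs do not show a difference between the libraries. *Hoxd11* and *Hoxd13* were found together in 90 BSA cells (ratio 1.26, 1.02 to 1.54) and 166 FGF8 cells (1.41, 1.21 to 1.63). *Pitx1* and *Tbx4* were found together in 20 cells of each library, with ratios of 1.35 (0.83 to 2.08) and 0.712 (0.44 to 1.10), so neither joint nor separate detection of the hindlimb genes was resolved at this depth.

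The other genes of the clusters and their partners were read in the same fibroblast-like cells. Of 33 other Hox genes 18 reached 10 UMIs, 8 were higher and 10 lower in FGF8, with a median log2 ratio of -0.14. Of all genes tested 44.1% were higher and 55.9% lower, and 11.7% were past 1 in either direction. *Hoxa6* (1 and 13 UMIs, 2.72, -0.01 to 8.13) passed 1, and *Hoxb9* (101 and 74 UMIs, -1.43) and *Hoxc6* (44 and 41 UMIs, -1.08) passed -1. The genes next to the HoxA members, *Hoxa9* and *Hoxa10*, had ratios of 0.08 and -0.23, *Hoxa7* 0.17, *Hoxd8* -0.20 and *Hoxd9* -0.14. Of 7 noncoding RNAs of the clusters 4 reached 10 UMIs. *Hoxa11os*, transcribed from the strand opposite *Hoxa11*, stood at 49.3 CPM in BSA (1747 UMIs) and 40.004 CPM in FGF8 (2793 UMIs), a ratio of -0.30 (-0.39 to -0.22), while *Hoxa11* stood at 0.05. *Hoxaas3* had 22 and 96 UMIs (1.15, 0.47 to 1.89), *Hotairm1* a ratio of 0.24 and *Hottip* -0.35.

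All 9 TALE homeodomain cofactors, which bind DNA with Hox proteins, reached 10 UMIs. Of these, 4 were higher and 5 lower, against 44.1% and 55.9% of all genes, with a median of -0.05. *Meis1* stood at 55.9 and 32.9 CPM (-0.77), *Pbx3* at 87.3 and 98.9 CPM (0.18), *Meis2* at 16.9 and 18.2 CPM (0.11) and *Pknox1* at 18.0 and 18.5 CPM (0.04). Of 20 limb position genes 18 reached 10 UMIs, and 16 of them were lower in FGF8, against 55.9% of all genes, with a median of -0.37. *Hand2*, a posterior limb bud gene, stood at -0.57, *Shox2* at -0.49, *Tfap2b* at -0.22, *Gli3* at -0.20 and *Msx1* at -0.13. *Tbx5* stood at -0.80 (-1.14 to -0.46). It was -0.53 (-1.12 to 0.04) in female-called cells and -1.12 (-1.72 to -0.48) in male-called cells, where the intervals overlap those of *Tbx4*.

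The genes most like each member were found by Pearson's r of log2(CPM + 1) over 33 units of cell type or fibroblast-like subcluster and library, among 16250 genes. The units share libraries and differ in depth, so r is a description. *Hoxa11* was most like *Bgn* (0.968), *Hoxa11os* (0.967) and *Hoxd11* (0.961), and *Hoxd11* was most like *Hoxa11*, *Hoxa11os* (0.937) and *Bgn* (0.935). *Tbx4* was most like *Ccn4* (0.963), *Prrx2* (0.962) and *Pdgfra* (0.933), and *Hoxd13* was most like *Ccn4* (0.910), *Hoxd11* (0.906) and *Dnm1* (0.904). *Hoxa13* was most like *Mrc2* (0.921), *B3gnt9* (0.908) and *Glt8d2* (0.907). *Pitx1* was most like *Ptgis* (0.869), *1700031C06Rik* (0.868) and *Hoxd13* (0.864), and *Hoxd12* was most like *Gm45338* (0.890), *Angptl1* (0.882) and *Cacna1g* (0.875). *Hoxd10* was most like *Zfp423* (0.871), *Dchs1* (0.862) and *Cdh13* (0.861).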

How the data were processed

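Cells of 2 libraries (1 BSA, 1 FGF8) were counted by the authors with Cell Ranger 9.0.0 against GRCm39, per the study's methods. The submitters' processing notes list differing genome builds, and positions here follow the build of the methods. The deposited values are whole-number UMI counts per gene and barcode, with no normalization. The BSA library held 67739460 UMIs (median 14835 per barcode) and the FGF8 library 124889213 UMIs (median 12285). Barcodes with more than 200 and fewer than 7500 genes and under 15% mitochondrial UMIs were kept. No doublet caller was run, and the upper limit on genes and an alternative without the top 5% of cells by UMIs stand in for it. Cells were normalized with SCTransform and integrated by canonical correlation in Seurat 5.3.0 (sctransform 0.4.2, R 4.3.3, 30 components, resolution 0.05, seed 42). Left out of the features were the 8 genes, the other Hox genes, the noncoding RNAs, the cofactors and the limb position genes. Clusters were named from marker lists, with at least 3 markers found in at least 10% of the cells, and lists within 0.1 (log2) were decided by the 10 leading genes found in at least 50% of the cells. This decided the fibroblast-like name, where tenocyte markers scored 3.12 and fibroblast markers 3.06 and *Dpt* was the leading marker. The naming rules, and the second clustering of an unnamed cluster at resolution 0.2 that gave the endothelial-like, lymphatic endothelial-like and keratinocyte-like cells, were set after the data were seen. That clustering also gave a neutrophil-like group (10 BSA and 55 FGF8 cells) and a fibroblast-like group (138 and 245 cells, medians 1194.5 and 695 UMIs). Neither was added to the larger class of its name. In this fibroblast-like group *Hoxd13* stood at 18.7 and 38.0 CPM and *Tbx4* at 21.4 and 34.7 CPM, on 7 to 23 UMIs. Fibroblast-like cells were clustered again at resolution 0.2. Both second clusterings also left out X- and Y-linked genes and the genes that the study listed as raised or lowered by FGF8 in fibroblasts. For fibroblast-like cells this left 2653 of 3000 variable features. Names were rebuilt from the counts, so cell types can differ from those of the study for that reason.

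UMIs were summed by cell type and library and scaled to 1000000. Intervals are exact Poisson (levels), Clopper-Pearson (shares) and conditional binomial (ratios) at 95%, and cover counting error only. A gene entered a comparison with 10 or more UMIs, both libraries added, and a count of 0 is given the upper limit of 3 UMIs. Cells were thinned to 2000 or 5000 UMIs to compare shares. Likeness used units of at least 50 cells, genes with at least 100 UMIs and a pseudocount of 1. Beyond the members, the genes named from each list were those past a log2 ratio of 1 or -1 and the 5 with the highest CPM, and for each member the 3 most alike; *Tbx5* and the Hox genes described by cell type were added as comparators. Some genes that this rule names are not reported here. The members and lists were chosen with earlier results of these data known. Promoter windows and positions were read from GRCm39 with GENCODE vM39. The coverage of the ratio intervals was checked on simulated counts. Python 3.11.15, numpy 2.4.6, scipy 1.17.1, pandas 2.3.3 and matplotlib 3.10.9 were used.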

Additional observations from a re-analysis of the deposited data

Results flagged for a closer look

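The log2 ratio, FGF8 over BSA, of 3 members had opposite directions in different cell types, with intervals that exclude 0 on both sides. *Hoxd13* was 1.30 in smooth muscle or pericyte-like cells (10 UMIs in BSA and 31 in FGF8) and 1.87 in macrophage-like cells, and -0.45 in chondrocyte-like cells (75 and 108 UMIs). *Tbx4* was 2.09 in macrophage-like cells (5 and 38 UMIs), -3.77 in erythroid-like cells (21 and 5 UMIs) and -0.21 in fibroblast-like cells. *Hoxd11* was 1.49 in macrophage-like cells (12 and 60 UMIs) and -0.19 in fibroblast-like cells. The 7 fibroblast markers summed to 4338 CPM in BSA and 1992 CPM in FGF8 in erythroid-like cells, and to 1717 and 2291 CPM in macrophage-like cells. The part of fibroblast transcripts in these ratios was not tested. Erythroid-like cells also differed in depth, with medians of 18542 UMIs per cell in BSA and 6983 in FGF8. The differences between cell types were not tested, since each condition had 1 library.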

How the results depend on the processing

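Over 12 alternatives for each of the 8 log2 ratios in fibroblast-like cells, 80 of 96 values stayed within the interval of the reported value, 13 moved outside it and 3 changed direction. *Tbx4* was 0.039 with each cell weighted equally and 0.055 when cells were thinned to 2000 UMIs, and *Hoxd10* was 0.18 when cells were thinned to 5000 UMIs and -0.78 at 2000. *Pitx1* stayed above 0, from 0.14 (thinned to 5000 UMIs) to 0.91 (male-called cells), and *Hoxa13* stayed below 0, from -0.42 to -0.16. The median of the 8 was -0.087 with each cell weighted equally and -0.032 with the same subcluster weights in both libraries. The share of the members' UMIs in fibroblast-like cells was 91.9% in FGF8 under a stricter cell filter, and 93.7% in BSA and 94.3% in FGF8 when types were called per cell. The count of members with a 2-fold range between subclusters was 2 at resolution 0.1, against 6, and the share of all genes was not computed. The cause of these moves was not tested. No paired analysis was possible because each condition had 1 library. Replicate error is unknown, and *Hoxd12* and the members in endothelial-like cells other than *Hoxd10* rest on few UMIs.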
